A study of Mus musculus with 11 samples.

Results

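The sterol arm of cholesterol synthesis is described here by 9 enzymes, Sqle, Lss, Cyp51, Tm7sf2, Msmo1, Nsdhl, Hsd17b7, Ebp and Dhcr7, out of 56980 Ensembl genes counted. They were named as enzymes between squalene and cholesterol, and the set was selected with the measured difference between cGAS KO and WT samples already known. Their KO-WT values are therefore given as a description and support nothing. Total RNA of primary lung fibroblasts was sequenced after ribosomal RNA depletion, with 1 library per mouse. The groups were cGAS KO females (n = 3), cGAS KO males (n = 3), WT females (n = 2) and WT males (n = 3). All cells were kept at 37 °C in 5% O2 and 5% CO2, in DMEM/F12 with 15% FBS and antibiotic-antimycotic, and no other treatment is named. Strain background, age and the allele's construction are not named in the labels used here. The extraction protocol speaks of pulverized tissue although the label is cultured fibroblasts.

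Cholesterol is built in the endoplasmic reticulum from acetyl-CoA. The mevalonate arm ends with squalene, and the sterol arm then oxidises and cyclises squalene, removes methyl groups, moves a double bond and reduces the ring and side chain. The transcription factor SREBP2, encoded by Srebf2, is released when sterols in that membrane are low and raises transcription of both arms. cGAS is a sensor of DNA in the cytosol that makes the second messenger cGAMP.

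Total counts ranged from 27261958 to 48039328 per library, and the 9 enzymes had between 254 and 5495 reads each per library. All 9 passed the low-count filter. Levels are given as CPM, the count scaled to the size of the library. Cgas, the gene targeted, had a KO level of 2.07 ± 0.252 CPM (SD, n = 6) against a WT level of 8.26 ± 1.76 CPM (SD, n = 5), with no overlap (log2 fold change -1.99, SE 0.16, edgeR adjusted p = 0.00102). Of the 12 fibroblast markers listed all were detected, and they summed to 37478 to 51561 CPM in KO and 40537 to 55269 CPM in WT. WT female 2 stood apart. Its median correlation with the other libraries was 0.960 against 0.978 to 0.986 for the rest, and repeats took 10.2% of its counts against 5.31% to 8.10%.

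The stretches of DNA just upstream of 5 of the enzymes are shown because the 9 transcripts moved together across libraries, and SREBP2 is known to act on such genes with the factors NF-Y, which binds CCAAT boxes, and Sp1, which binds GC boxes. RefSeq start windows were matched by symbol for 8 of the 9 enzymes, and Sqle is named only. Each line gives the 200 bases before the annotated start, 5′ to 3′ on the strand of the gene, in build GRCm38.p6. Capitals mark CCAAT boxes (CCAAT or ATTGG) and GC boxes (GGGCGG or CCGCCC). Nsdhl (chrX:72918321-72918520, plus strand) is shown as the enzyme that followed the other 8 most closely and Ebp (chrX:8193513-8193712, minus strand) as the one that followed them least. Msmo1 (chr8:64733579-64733778, minus strand) had the highest level per kilobase and Hsd17b7 (chr1:169969206-169969405, minus strand) the lowest. Dhcr7 (chr7:143830014-143830213, plus strand, the third of its 3 windows) had the largest fitted KO-WT fold change. Window 3 of Dhcr7 held 2 CCAAT boxes and 3 GC boxes. Its windows 1 and 2, not shown, held 0 CCAAT boxes each, with 1 and 0 GC boxes.
Nsdhl: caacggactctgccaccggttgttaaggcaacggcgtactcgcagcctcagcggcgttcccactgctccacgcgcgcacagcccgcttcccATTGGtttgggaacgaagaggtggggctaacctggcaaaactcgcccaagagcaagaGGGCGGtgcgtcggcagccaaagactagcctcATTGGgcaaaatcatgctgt
Ebp: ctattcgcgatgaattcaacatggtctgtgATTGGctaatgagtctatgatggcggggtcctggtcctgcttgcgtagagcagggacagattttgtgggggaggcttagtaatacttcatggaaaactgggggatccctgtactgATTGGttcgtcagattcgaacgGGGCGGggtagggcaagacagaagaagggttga
Msmo1: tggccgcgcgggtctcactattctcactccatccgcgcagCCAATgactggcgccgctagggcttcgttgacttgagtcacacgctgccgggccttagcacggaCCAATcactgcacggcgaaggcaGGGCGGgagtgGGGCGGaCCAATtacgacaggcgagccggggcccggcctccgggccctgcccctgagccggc
Hsd17b7: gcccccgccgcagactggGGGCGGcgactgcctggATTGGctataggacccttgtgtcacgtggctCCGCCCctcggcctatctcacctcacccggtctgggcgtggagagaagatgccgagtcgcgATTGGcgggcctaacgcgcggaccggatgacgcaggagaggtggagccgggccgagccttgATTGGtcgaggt
Dhcr7: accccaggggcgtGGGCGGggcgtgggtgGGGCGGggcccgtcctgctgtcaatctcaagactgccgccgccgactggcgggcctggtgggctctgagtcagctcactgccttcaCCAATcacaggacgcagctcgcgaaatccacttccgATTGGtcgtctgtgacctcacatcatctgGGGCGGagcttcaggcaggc

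Motifs were counted on both strands in the full RefSeq windows, which run from 250 bases before to 50 bases after the start. Each motif was counted on its own, whether or not it overlapped another. A CCAAT box lay in a window of 8 of 8 enzymes, against 41.1% of 27025 genes with such windows. For Dhcr7 this was window 3 of 3 only. A GC box lay in a window of 8 of 8, against 38.2% of genes. Both boxes shared 1 window in 14.5% of all genes. The sterol regulatory element was searched as TCACNCCAC. No enzyme held it exactly, against 1.44% of all genes, and 5 of 8 held it with at most 1 mismatch, against 26.7%. For Dhcr7 this near match lay in window 2 only, which held neither box and is not shown. Hmgcs1, of the mevalonate arm, held an exact match. GC content of the 8 enzymes' windows ran from 45.3% for Ebp to 71% for Lss. The median over all windows was 52.7%, and only Ebp and window 2 of Dhcr7 (48.7%) lay below it. The genes compared were not matched for GC content. These are matches of letters and not measured binding.

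All 9 enzymes had a higher mean level in KO than in WT fibroblasts, with fitted ratios from 1.31 for Ebp to 1.88 for Dhcr7. The ratio was larger in males than in females for all but Hsd17b7. The enzymes are given in the order of the pathway, starting with those that act on squalene. Sqle, squalene epoxidase, adds the oxygen that allows ring closure and is a rate-limiting step of the arm. It stood at 84.1, 92.2 and 97.8 CPM in KO females and 113, 111 and 99.7 CPM in KO males. In WT it stood at 79.5 and 44.0 CPM in females and 51.1, 65.5 and 56.1 CPM in males. Every KO library was above every WT library, by the narrow margin between KO female 1 and WT female 1. The fitted log2 fold change over both sexes was 0.75 (SE 0.14). In bulk RNA, fewer cells of a type and less RNA per cell cannot be told apart.

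Lss, lanosterol synthase, closes the rings. Its level was 42.6, 48.4 and 65.1 CPM in KO females, 63.5, 56.5 and 53.4 CPM in KO males, 39.3 and 36.7 CPM in WT females, and 18.9, 29.3 and 24.6 CPM in WT males. WT males lay lowest and the groups of the 2 genotypes did not overlap. The fitted log2 fold change was 0.89 (SE 0.18) in both sexes, 1.25 (SE 0.18) in males and 0.45 (SE 0.20) in females. On the reference annotation 381 exonic bases of Lss are shared with 4930483K19Rik on the opposite strand, which had at most 179 counts in any library.

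Cyp51, the demethylase that starts the trimming of lanosterol, was at 98.9, 97.9 and 124 CPM in KO females and 105, 99.5 and 98.4 CPM in KO males. WT females had 92.0 and 61.8 CPM and WT males 46.6, 67.6 and 67.7 CPM. KO female 3 was the highest library, the other 5 KO libraries lay close together, and no WT library reached them. The fitted log2 fold change was 0.62 (SE 0.14). Tm7sf2, a reductase of the ring double bond that Cyp51 leaves behind, was the least counted enzyme. It ran from 9.48 to 14.9 CPM in KO (median 12.5) and from 6.16 to 9.67 CPM in WT (median 7.44), with a log2 fold change of 0.69 (SE 0.14). Only KO female 1 lay below the highest WT library, WT female 1. Strand use in counting is unknown, and both genes share exonic bases with neighbours. Cyp51 shares 166 with Akap9 on the opposite strand, and Tm7sf2 shares 532 with Vps51 on the same strand. Akap9 had at most 2815 counts in any library, against at most 4845 for Cyp51. Vps51 had at most 1593 counts, against at most 677 for Tm7sf2.

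Msmo1, Nsdhl and Hsd17b7 form the complex that removes the paired methyl groups, as oxidase, decarboxylating dehydrogenase and keto reductase. Msmo1 was at 87.0, 93.6 and 104 CPM in KO females, 121, 112 and 98.3 CPM in KO males, 83.2 and 66.0 CPM in WT females, and 44.0, 63.4 and 56.3 CPM in WT males. Nsdhl was at 21.4, 24.4 and 27.4 CPM in KO females, 26.5, 25.5 and 24.3 CPM in KO males, 19.9 and 13.2 CPM in WT females, and 11.7, 15.0 and 14.2 CPM in WT males. In both genes WT female 1 came closest to KO without overlap. Hsd17b7 ran from 29.3 to 36.5 CPM in KO (median 31.7) and from 15.7 to 26.7 CPM in WT (median 21.99). It too did not overlap. Fitted log2 fold changes were 0.71 (SE 0.15) for Msmo1, 0.75 (SE 0.13) for Nsdhl and 0.58 (SE 0.12) for Hsd17b7.

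Ebp and Dhcr7 act late. Ebp, the isomerase that moves the ring double bond, was at 21.3, 22.6 and 21.0 CPM in KO females, 29.3, 28.8 and 26.4 CPM in KO males, 21.1 and 14.8 CPM in WT females, and 20.1, 22.4 and 17.8 CPM in WT males. The genotypes overlapped through KO females 1 and 3, and its log2 fold change of 0.39 (SE 0.10) was the smallest of the 9. Dhcr7, the reductase that turns 7-dehydrocholesterol into cholesterol, was at 30.3, 40.7 and 42.5 CPM in KO females and 56.9, 52.6 and 43.9 CPM in KO males. WT females had 32.1 and 21.8 CPM and WT males 17.1, 26.1 and 21.2 CPM. KO female 1 fell under WT female 1 and the other KO libraries lay above all WT libraries. Its log2 fold change of 0.91 (SE 0.18), a fitted ratio of 1.88, was the largest of the 9.

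**Figure D1:**
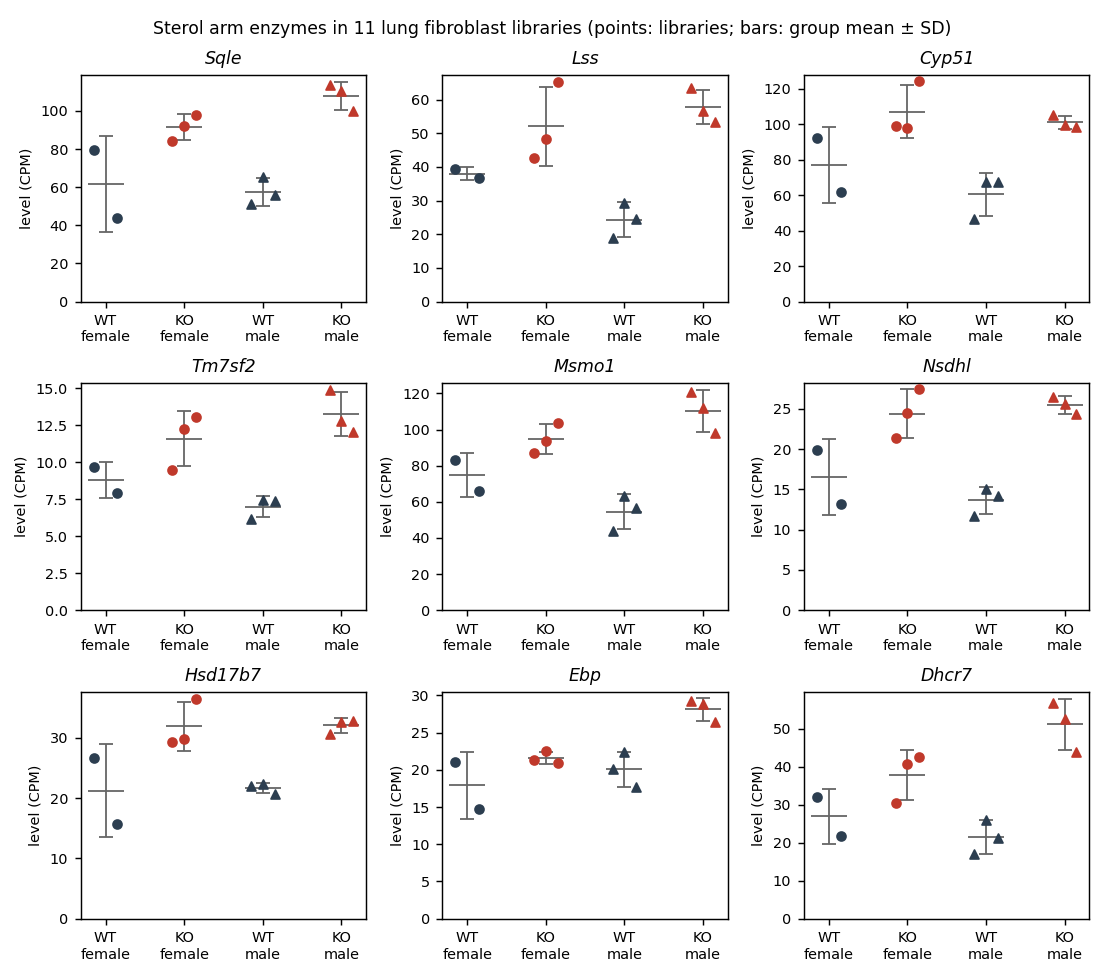
CPM of each enzyme (vertical axis, from 0) in each library, by genotype and sex; points are libraries, bars the group mean ± SD (n = 3, except n = 2 for WT females). The males of the 2 genotypes are apart in all 9 panels, and WT female 1 is the WT library that comes nearest to KO in 8 of them.

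As a set, all 9 fitted log2 fold changes were positive, with a median of 0.71, while the median over all 22298 entries tested was -0.02 and 47.5% were positive. None of the 9 passed an adjusted p of 0.05 in edgeR's quasi-likelihood test over both sexes, where all had an adjusted p of 0.179 and 0.00448% of entries (Cgas alone) were called. At an unadjusted p under 0.05 all 9 passed, against 17.2% of entries. DESeq2 called 9 of 9 on the same counts, against 2.45% of entries. KO and WT did not overlap in 6 of 9 enzymes, against 0.789% of entries with every KO library above every WT library. Without WT female 1 edgeR called 9 of 9, against 7.33% of entries in that fit, and the median was 0.85. Without WT female 2 it called none, against 0.00440% of entries, and the median was 0.67, and without both WT female 2 and WT male 1 it called none and the median was 0.58. Macrophage and leukocyte markers moved the same way, with a summed level of 8401 to 13969 CPM in KO and 5837 to 8746 CPM in WT. Nothing is read from these counts about the enzymes, since the set was selected on this contrast.

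Within males, KO and WT did not overlap in 9 of 9 enzymes, against 18.0% of entries, and the median log2 fold change was 0.91. edgeR called 6 of 9 higher in KO males, namely Sqle, Lss, Tm7sf2, Msmo1, Nsdhl and Dhcr7, each with an adjusted p of 0.0475. It called 2.00% of 22960 entries in either direction and 1.30% as higher. DESeq2 called 9 of 9 in males, against 9.27% of entries, and all 9 had an unadjusted p under 0.05 in edgeR, against 22.2%. Calls in males over all entries numbered 459 in the reported fit. That number was 0 without KO female 2 or 3, KO male 1 or 2, or WT male 1. It was 1 without WT male 3 and 17 without KO female 1. The 6 calls among the enzymes sat near the threshold. They numbered 0 without KO female 2 or 3, KO male 1 or 2, or WT male 1 or 3. They numbered 1 without KO female 1. They numbered 9 without WT female 1, against 8.56% of entries, and 9 without WT female 2, against 7.40%. Within females the median was 0.48, 6 of 9 did not overlap, against 9.32% of entries, and edgeR called none (adjusted p = 0.692), against 0.00436% of entries. At an unadjusted p under 0.05, 6 of 9 passed in females, against 6.66% of entries, and DESeq2 called 0 of 9, against 0.0261%. Without WT female 1 the female median was 0.81 and 5 of 9 were called, against 15.4% of entries. Without WT female 2 the female median was 0.23, with Ebp at 0.03. In both fits the lone WT female is assumed to vary like the other groups.

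**Figure D2:**
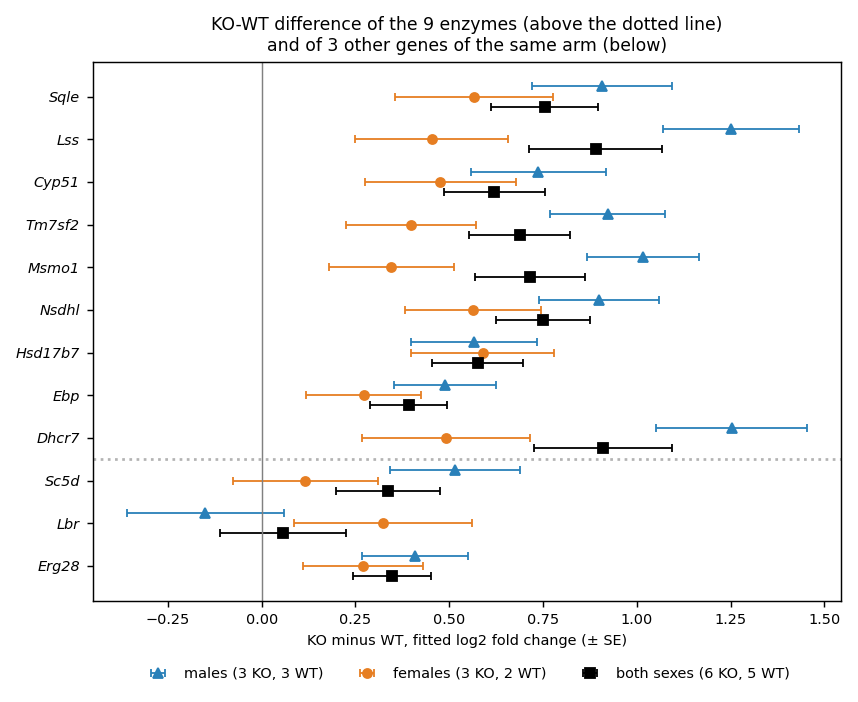
Fitted KO minus WT log2 fold change ± SE (horizontal axis) in males, females and both sexes for the 9 enzymes and, under the dotted line, 3 other genes of the arm. Values of Lss, Msmo1 and Dhcr7 in males lie at 1.25, 1.02 and 1.25, and in females at 0.45, 0.35 and 0.49.

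Whether the KO-WT difference itself depended on sex was a contrast that did not choose the set. The male difference exceeded the female one in 8 of 9 enzymes, by a median of 0.34 on the log2 scale. Lss had the largest excess, 0.80 (edgeR adjusted p = 0.296), followed by Dhcr7 with 0.76 (adjusted p = 0.333) and Msmo1 with 0.67 (adjusted p = 0.294). Hsd17b7 differed by -0.02. None of the 9 passed, and 0% of entries did; at an unadjusted p under 0.05, 4 of 9 passed, against 13.1% of entries, and DESeq2 called 0 of 9, against 0.989%. The median over the 9 moved with the WT females. Without WT female 1 it was -0.000966 and 4 of 9 were positive, with Lss at 0.74, Msmo1 at 0.48 and Dhcr7 at 0.44. Without WT female 2 all 9 were positive, with a median of 0.64. Over all 11 libraries left out in turn, Lss stayed between 0.65 and 0.99, Msmo1 between 0.48 and 0.81 and Dhcr7 between 0.44 and 0.99.

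Males and females were then compared with genotype in the model, which the choice of the set also did not use. The 9 enzymes did not move one way: 4 were higher and 5 lower in males, with a median of -0.04. None passed in edgeR or DESeq2, which called 4.29% and 12.8% of entries, and 1 passed at an unadjusted p under 0.05, against 27.0%. Nsdhl and Ebp lie on the X chromosome, where females carry an extra copy that is largely silenced. Ebp had the largest difference, 0.29 (SE 0.10, edgeR adjusted p = 0.110, unadjusted p = 0.0174), in the male direction. KO males had 28.2 ± 1.55 CPM (SD, n = 3) of Ebp and KO females 21.6 ± 0.840 CPM (SD, n = 3) without overlap, whereas the WT sexes overlapped. Nsdhl differed by -0.09 (SE 0.12, adjusted p = 0.686). Lss and Cyp51 had the lowest values, -0.20 (SE 0.17) and -0.20 (SE 0.13), with adjusted p of 0.477 and 0.361. Without WT female 1, Ebp passed with 0.41 (SE 0.08, edgeR adjusted p = 0.0135), as did 14.6% of entries. Sex differences may share any difference in handling of the female and male cultures, which cannot be told apart.

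**Figure D3:**
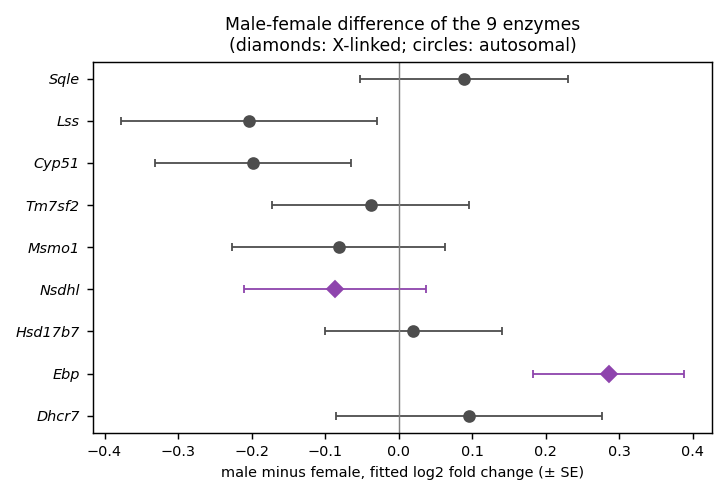
Fitted male minus female log2 fold change ± SE (horizontal axis) of each enzyme over 11 libraries, with genotype in the model; diamonds are X-linked genes and circles autosomal ones. Ebp lies at 0.29 and Nsdhl, also X-linked, at -0.09.

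Levels were compared between enzymes per kilobase of the longest coding transcript. In WT, Msmo1 was highest with 30.6 ± 7.01 CPM per kilobase (SD, n = 5), followed by Sqle with 21.5 ± 4.99 and Cyp51 with 17.1 ± 4.16. Ebp followed with 11.03, Dhcr7 with 8.40, Nsdhl with 6.83, Lss with 6.38, Tm7sf2 with 5.15 and Hsd17b7 with 4.66 CPM per kilobase. In WT the ranges of neighbours in this order overlapped at every step, although each of the first 5 was above the next within all 5 libraries. In KO the order was Msmo1 with 50.2 ± 6.08 CPM per kilobase (SD, n = 6), Sqle 36.1, Cyp51 26.5, Dhcr7 15.8, Ebp 14.3, Lss 11.8, Nsdhl 11.5, Tm7sf2 8.29 and Hsd17b7 6.93. Ranges were apart only between Msmo1 and Sqle and between Cyp51 and Dhcr7. Dhcr7 and Ebp thus stood in opposite order in the 2 genotypes, as did Lss and Nsdhl, in each case with overlapping ranges.

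The enzymes were next followed across the 11 libraries after the mean of each genotype and sex was removed, a measure that does not contain the KO-WT difference. All 36 pairs correlated positively, with a median Pearson r of 0.80, from 0.22 for Lss with Ebp to 0.94 for Msmo1 with Dhcr7. Pairs among 14515 entries had a median of 0.01. Nsdhl followed the mean of the other 8 most closely (r = 0.979), then Dhcr7 (0.947), Sqle (0.924) and Msmo1 (0.907). Ebp (0.632), Hsd17b7 (0.697) and Lss (0.718) followed it least. The median over pairs ran from 0.76 to 0.83 when each library was left out in turn. The points share their libraries' depth and culture, and the 2 WT females deviate as mirror images because only 2 were sampled.

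WT female 1, WT male 2, KO female 3 and KO male 1 were the libraries in which at least 8 of 9 enzymes exceeded their group mean. WT female 2, KO female 1 and KO male 3 were those in which at least 8 were below it. Sqle deviated by 0.43 in WT female 1 and Lss by only 0.05. In WT male 1 Cyp51 was lowest at -0.36 and Lss next at -0.34, while Hsd17b7 and Ebp stayed at 0.02 and 0.01.

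**Figure D4:**
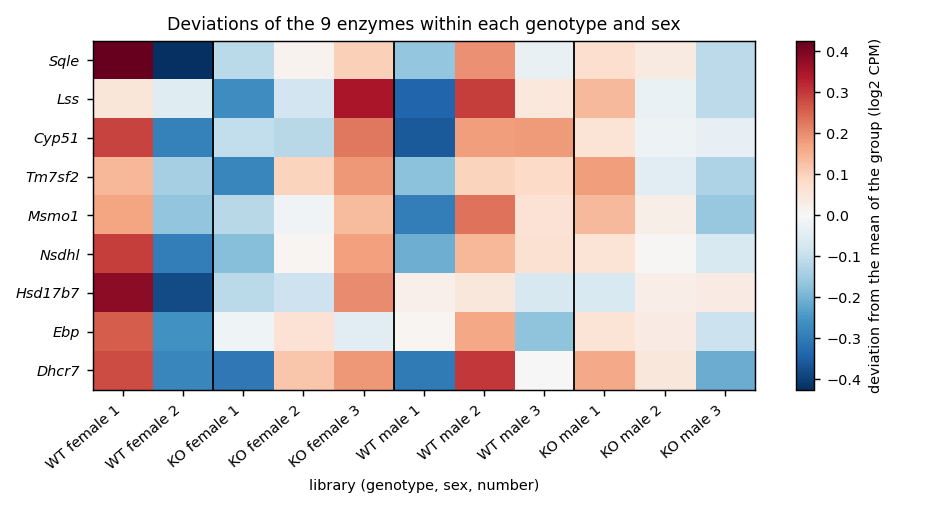
Deviation of each enzyme (rows) from the mean log2 CPM of its genotype and sex in each of the 11 libraries (columns); red is above and blue below, and black lines part the groups. WT female 1 is red and WT female 2 blue in all 9 rows, with Sqle at 0.43 and -0.43.

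Outside the pathway lists, the 10 named genes that followed the mean profile of the 9 enzymes most closely by the same within-group measure over 11 libraries were Tjp3 (r = 0.985), Ropn1l (0.983), Pcca (0.975), Dis3l2 (0.958), Zfp426 (0.952), Pi4ka (0.950), Pagr1b (0.949), Tacc1 (0.949), Eps8 (0.949) and Rnf19a (0.944). They were picked as the highest of 14515 entries. Their KO-WT values were smaller than most of the enzymes': Tjp3 had a log2 fold change of 0.64 (SE 0.17) and Zfp426 one of -0.01 (SE 0.07).

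A further 3 genes of the arm that are not among the 9 were compared. Sc5d, the desaturase before Dhcr7, had a KO level of 69.4 ± 8.99 CPM (SD, n = 6) and a WT level of 54.4 ± 17.6 CPM (SD, n = 5), with overlap, and its log2 fold change was 0.34 (SE 0.14). Erg28, a scaffold of the demethylation complex, had 0.35 (SE 0.10). Lbr, which carries the same reductase activity as Tm7sf2 and also anchors chromatin at the nuclear envelope, had a KO level of 39.9 ± 2.00 CPM and a WT level of 39.5 ± 13.0 CPM, with 0.06 (SE 0.17). Within groups, Erg28 (r = 0.854) followed the profile of the 9 enzymes, and Sc5d (0.268) and Lbr (0.135) hardly did. None of the 3 was called in either sex or both together, with edgeR adjusted p from 0.179 to 0.892 in both. At an unadjusted p under 0.05, 2 of 3, Sc5d and Erg28, passed in both sexes, against 17.2% of entries. The difference between Tm7sf2 and Lbr was not tested.

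The mevalonate arm upstream was positive in 9 of 9 genes, with a median log2 fold change of 0.77. No gene of it was called by edgeR in both sexes, although 9 of 9 had an unadjusted p under 0.05, against 17.2% of entries. In males 8 of 9 were called higher, against 1.30% of entries. Hmgcs1, which commits acetyl units to the pathway, had 0.77 (SE 0.16), and Fdft1, which makes squalene, 0.71 (SE 0.16). Hmgcs1 followed the profile of the 9 enzymes within groups with r = 0.982 and the arm's median r was 0.906, against 0.0989 over 14515 entries. Of 17 genes of SREBP control, uptake and enzyme turnover, 14 were positive, with a median of 0.10. In both sexes edgeR called none, and 7 had an unadjusted p under 0.05, against 17.2% of entries. In males it called 5 as higher, against 1.30% of entries. Srebf2 had 0.40 (SE 0.09), Insig1, which retains SREBP in the endoplasmic reticulum, 0.76 (SE 0.17), and Soat1, which esterifies cholesterol, 0.27 (SE 0.11). Srebf2 followed the 9 enzymes within groups (r = 0.916).

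Among 8 genes of LXR and efflux, which export cholesterol or sense its oxidised forms, 7 were positive, with a median of 0.33. In both sexes, males or females edgeR called none. At an unadjusted p under 0.05 these were 4, 5 and 0 genes, against 17.2%, 22.2% and 6.66% of entries. Abca1, an exporter, had a log2 fold change of 0.72 (SE 0.23), Abcg1, another exporter, 0.20 (SE 0.19), and Ch25h, which makes 25-hydroxycholesterol, -0.06 (SE 0.18). In the comparison of sexes, Apoe, a lipoprotein component, was lower in males with a log2 difference of -1.02 (SE 0.25, edgeR adjusted p = 0.0457). No gene of either synthesis arm passed in that comparison, against 4.29% of entries. These lists, like the 9 enzymes, were drawn up with results of these data known.

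Markers of macrophages and leukocytes were mostly higher in KO, as the enzymes were. Of 16 macrophage and leukocyte markers 14 were positive in the KO-WT comparison, with a median log2 fold change of 0.48. edgeR called none in both sexes, and 10 had an unadjusted p under 0.05, against 17.2% of entries. In males 4 were called higher, against 1.30% of entries. Beside the summed levels given above, no marker was at 0 in every library, and Lyz2 alone reached 2531 to 6191 CPM. Their mean log2 CPM ran from 7.06 to 7.62 in KO and from 6.41 to 7.34 in WT, where WT female 1 was highest. Within groups it correlated with the enzymes' profile with r = 0.602 and Spearman's rho = 0.445 over 11 libraries, and with r = 0.727 without the 2 farthest. With this score as a covariate, all 9 log2 fold changes stayed positive but were smaller, from 0.10 for Ebp to 0.64 for Lss with a median of 0.43, and none was called (edgeR adjusted p = 1). Which part of the enzymes' RNA came from such cells was not tested.

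**Figure D5:**
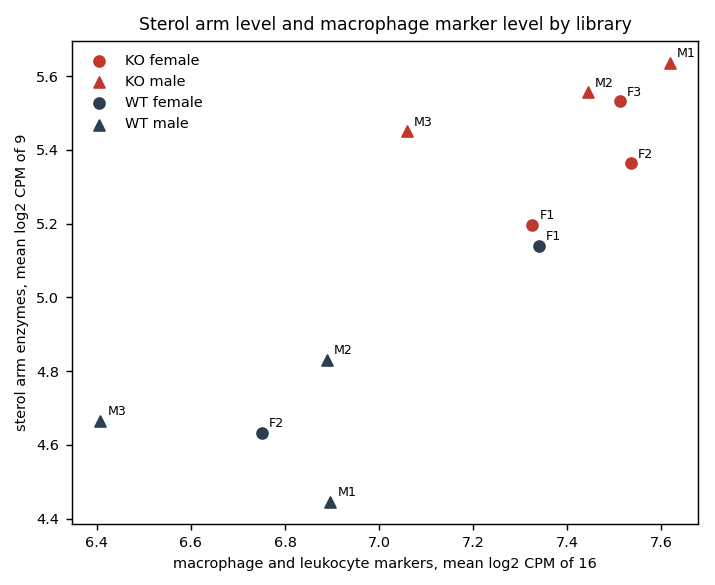
Mean log2 CPM of the 9 enzymes (vertical) against that of 16 macrophage and leukocyte markers (horizontal), 1 point per library; colour gives genotype, shape and letter give sex, and the number is that of the label. WT female 1, at 7.34 and 5.14, lies beside KO female 1, at 7.33 and 5.197.

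Other marker lists were followed by the same measure. The within-group correlation with the enzymes' profile was r = 0.452 (rho = 0.491) for fibroblast markers, 0.347 (0.382) for proliferation, 0.281 (0.209) for adipocyte, 0.204 (0.236) for epithelial and 0.142 (0.164) for endothelial markers. By Spearman's rho the fibroblast markers were above the macrophage markers, and by Pearson's r below them. Differences between the lists were not tested. In the order above, the median KO-WT log2 fold changes of the 5 lists were 0.05, 0.02, 0.40, -0.90 and -0.74, and edgeR called none of their genes in both sexes. At an unadjusted p under 0.05 these were 0 of 12, 0 of 10, 2 of 4, 2 of 7 and 2 of 8 genes tested, against 17.2% of entries. In males edgeR called Krt19, a keratin of epithelia, lower in KO (-0.91, adjusted p = 0.0475) and Vwf, of endothelium, higher (1.22, adjusted p = 0.0475). Over all entries 2.00% were called in males. Vwf went against its list: in males 6 of 8 endothelial markers were negative, with a median of -1.46. All 7 epithelial markers tested were negative there, with a median of -1.39. Epithelial markers summed to 10.6 to 37.0 CPM in KO and 22.3 to 55.0 CPM in WT, endothelial ones to 55.5 to 106 and 40.4 to 90.5 CPM, and adipocyte ones to 103 to 176 and 59.5 to 136 CPM. With the proliferation score as a covariate the 9 enzymes kept a median of 0.73. The part of these cells in the result was not tested.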

How the data were processed

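The authors deposited raw whole-number counts per Ensembl gene and repeat subfamily, 1 table per mouse with 58223 entries. Per the submitters' processing notes, Trim Galore trimmed the reads and STAR placed them on GRCm39. The counting program, its annotation, strand setting and treatment of multi-mapping reads are not given in the sources used here, so overlapping genes cannot be separated. Groups came from the labels. Replicates within a group differed beyond sampling noise (chi-square per degree of freedom 12.0 to 144).

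Counts were filtered with edgeR 4.0.16 (filterByExpr, minimum count 10), scaled by TMM (factors 0.951 to 1.04) and fitted over all entries with the quasi-likelihood test in R 4.3.3, as sex plus genotype (22298 entries tested) or as a mean per genotype and sex (22960 tested). P-values were adjusted by Benjamini-Hochberg over all entries, with a threshold of 0.05. The standard error is the log2 fold change over the root of F. Fitting over both sexes was tested on simulated counts. The changes put in were larger than those of the 9 enzymes, and the spread between replicates was capped. That test therefore does not show how well changes of the enzymes' size are recovered. Within-group profiles used log2 CPM (prior count 2) of entries averaging at least 1 and standardized means of the 9 enzymes.

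Named genes are the 9 enzymes, further genes of the arm, a few genes of each pathway list, the 10 named genes most alike in within-group profile, and Cgas. The members and lists were chosen with earlier results of these data known. Some genes of these lists are not reported here by name. Apoe, Lyz2, Krt19 and Vwf were named after their values were seen. Marker lists were fibroblast, macrophage and leukocyte, epithelial, endothelial, adipocyte and proliferation. Alternatives were other scaling, filters, DESeq2 1.42.0, limma 3.58.1 (voom), genes without repeats, no sex term, marker scores as covariates, a replicate block, and each library left out; leaving out both WT male 1 and WT female 2, which had low voom weights (0.367 and 0.15), was added after seeing the data. Promoter windows came from RefSeq (GRCm38.p6) and transcript lengths from the reference annotation, neither being the build of the counts, and no coordinate was carried between builds.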

Additional observations from a re-analysis of the deposited data

Results flagged for a closer look

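Cyp51 in KO female 3 stood at 124 CPM, far above the other 5 KO libraries. Its gap to the nearest was 0.727 of the whole KO range, above Dixon's critical value of 0.625 for 6 samples. Of 18 groups checked (9 enzymes in 2 genotypes) it was the only one past that value, and chance puts about 5% of groups past it.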

How the results depend on the processing

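All 9 enzymes kept a positive KO-WT log2 fold change over both sexes in all 24 alternatives. The set was selected on this contrast and the alternatives refit libraries of the same series, so these signs support nothing. The within-group median correlation stayed between 0.76 and 0.83 with each library left out. With the mean of each sex alone removed, which keeps the KO-WT difference, it was 0.93. Counts of calls did not hold. Entries called in both sexes numbered 1 in the reported fit, 3 with no low-count filter, 546 with DESeq2, 1557 with voom and sample quality weights, and 0 with the replicate block or the macrophage score, where Cgas lost its call. They ran from 1 to 1678 with each library left out (2 without KO female 1, 1678 without WT female 1). Of the 9 enzymes, both sexes gave 0 as reported, 9 with DESeq2 and 9 with voom and quality weights, and 0 to 9 with each library left out. In males the 6 became 9 with DESeq2 or with voom and quality weights, 7 with no low-count filter, 0 with no scaling factors, with limma-voom, with the replicate block and with both doubted WT libraries left out, and 0 to 9 with each library left out. In females 0 became 0 to 5. In the comparison of sexes 0 became 1 with quality weights and 0 to 1 with each library left out. Male calls over all entries moved too, from 459 in the reported fit to 2129 with DESeq2 and 3722 with voom and quality weights. They were 1079 with no low-count filter, 4 with no scaling factors, 10 with limma-voom and 0 with the replicate block. In the comparison of sexes, quality weights called 5328 entries, against 956 in the reported fit. The cause of these changes was not tested.

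Several values near 0 changed sign. In KO against WT, Lbr became -0.18 with the macrophage score and -0.00182 with the proliferation score, Soat1 -0.0405 and Abcg1 -0.0694 with the macrophage score. With each library left out Lbr ran from -0.12 to 0.20 and Ch25h from -0.19 to 0.15. In males against females, quality weights gave 0.0112 for Lss, 0.0715 for Tm7sf2, 0.0838 for Msmo1 and -0.00995 for Hsd17b7, limma-voom gave 0.00112 for Tm7sf2, and without both doubted libraries Tm7sf2 was 0.0156 and Hsd17b7 -0.0919. With each library left out, Sqle ran from -0.00696 to 0.29, Tm7sf2 from -0.13 to 0.0702, Msmo1 from -0.15 to 0.0533, Nsdhl from -0.15 to 0.0618, Hsd17b7 from -0.0964 to 0.16 and Dhcr7 from -0.0186 to 0.28. The male minus female KO-WT change of Hsd17b7 became 0.0352 with the replicate block and 0.30 without both doubted libraries, and ran from -0.47 to 0.29 with each library left out.

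Whether the replicate numbers shared by KO and WT pair the mice is not settled here. Deviations of same-numbered libraries correlated by 0.0282 and -0.200 in females and -0.233, 0.143 and 0.0482 in males. Libraries of other numbers ran from -0.413 to 0.389 in males. In females the 2 WT libraries deviate as mirror images, so their values cannot tell. The replicate block left a median of 0.73 for the 9 enzymes and 0 calls among entries.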
